A study of Mus musculus with 4 samples.

Results

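Retinoic acid is a small signalling molecule that cells make from vitamin A and destroy again, and 9 genes that handle it were followed in the RNA-Seq values of sorted progenitors from the neonatal mouse cochlea. The genes were taken by their symbols, *Rdh10*, *Dhrs3*, *Aldh1a1*, *Aldh1a2*, *Aldh1a3*, *Crabp1*, *Crabp2*, *Cyp26a1* and *Cyp26b1*, and all 9 were found among the 23997 genes of the table. Lgr5+ progenitors were EGFP+ cells sorted from Lgr5-EGFP-IRES-CreERT2 mice and Lgr6+ progenitors were EGFP+ cells sorted from Lgr6-EGFP-IRES-CreERT2 mice, both from cochleae at postnatal day 3 of mice labelled as strain C57BL/6 and with no treatment given in the sources. The EGFP reporter is driven from the Lgr5 or the Lgr6 locus, so each population holds whichever cells carry that reporter. The labels list 2 libraries per population, 4 in all, and the methods describe 3 fractions split from one RNA extraction of each population. The deposited values are 1 combined FPKM per gene and population, where FPKM is the number of fragments normalized for transcript length and for all mapped fragments. The spread between replicates is therefore not known, no difference has a replicate check, and no p-value was calculated.

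The path to retinoic acid has 2 steps. Retinol is first oxidized to retinaldehyde, a reversible step in which Rdh10 runs forward and Dhrs3 runs back, and the retinaldehyde dehydrogenases of the Aldh1a family then make retinoic acid irreversibly. The binding proteins Crabp1 and Crabp2 carry retinoic acid inside the cell, and the cytochrome P450 hydroxylases Cyp26a1 and Cyp26b1 break it down. In the nucleus retinoic acid binds the receptors Rara, Rarb and Rarg, which pair with the Rxr receptors on DNA. In the developing inner ear, retinoic acid takes part in patterning of the otic vesicle and in the formation of sensory cells.

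In the sorted cells the binding protein genes and 1 gene of breakdown were abundant, and the *Aldh1a* genes of the last step of synthesis were low. *Crabp2*, *Cyp26b1* and *Crabp1* had an FPKM from 48.1 to 304 in both populations, while the 3 *Aldh1a* genes stayed between 0 and 10.4. The genes of breakdown, *Crabp2* and *Dhrs3* were lower in Lgr6+ progenitors than in Lgr5+ progenitors, and *Aldh1a1* was higher in Lgr6+ progenitors. Differences are given here as the log2 difference, log2(FPKM + 1) in Lgr6+ minus that in Lgr5+ progenitors, so that a negative value means a higher level in Lgr5+ progenitors. The added 1 makes the log2 difference of low genes smaller. A gene was kept when its FPKM was at least 1 in at least 1 population, which 13436 genes and all 9 retinoic acid genes met, and it was counted as past the fold when the log2 difference reached 1.5-fold.

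By this count 4 of the 9 genes were past the fold toward Lgr5+ progenitors, against 23.3% of all kept genes, and 2 of the 9 were past it toward Lgr6+ progenitors, against 28.5% of all kept genes. Of these genes *Cyp26a1* was kept through its Lgr5+ value alone and *Aldh1a2* through its Lgr6+ value alone. The share of the 9 was 44.4% toward Lgr5+ and 22.2% toward Lgr6+ progenitors. The same 6 genes were at least 2-fold apart, where the shares of all kept genes were 11.7% toward Lgr5+ and 18.2% toward Lgr6+ progenitors. The median log2 difference was -0.49 for the 9 genes and 0.03 for all kept genes. Of all kept genes, 51.8% were past 1.5-fold and 29.9% were past 2-fold in one direction or the other, so passing the fold alone sets no gene apart from the rest of the table.

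**Figure D1:**
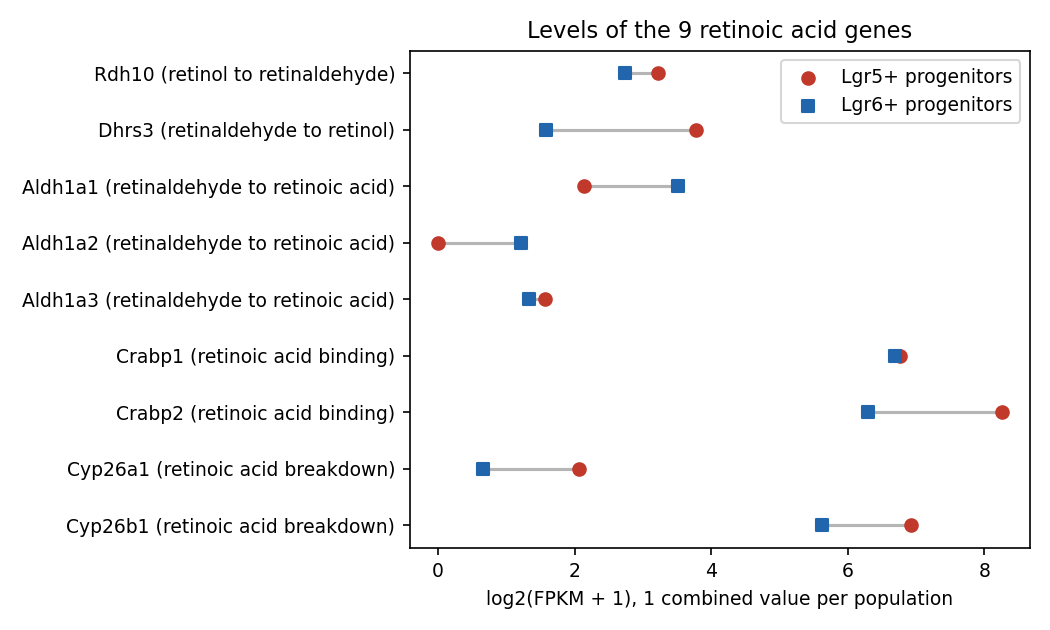
Level of each of the 9 genes in Lgr5+ progenitors (circles) and Lgr6+ progenitors (squares), as log2(FPKM + 1), with 1 combined value per population and no error bars because the replicates are not given separately. Circles lie to the right of squares for *Dhrs3*, *Crabp2*, *Cyp26a1* and *Cyp26b1*, squares lie to the right for *Aldh1a1* and *Aldh1a2*, and the symbols for *Crabp1* nearly coincide.

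**Figure D2:**
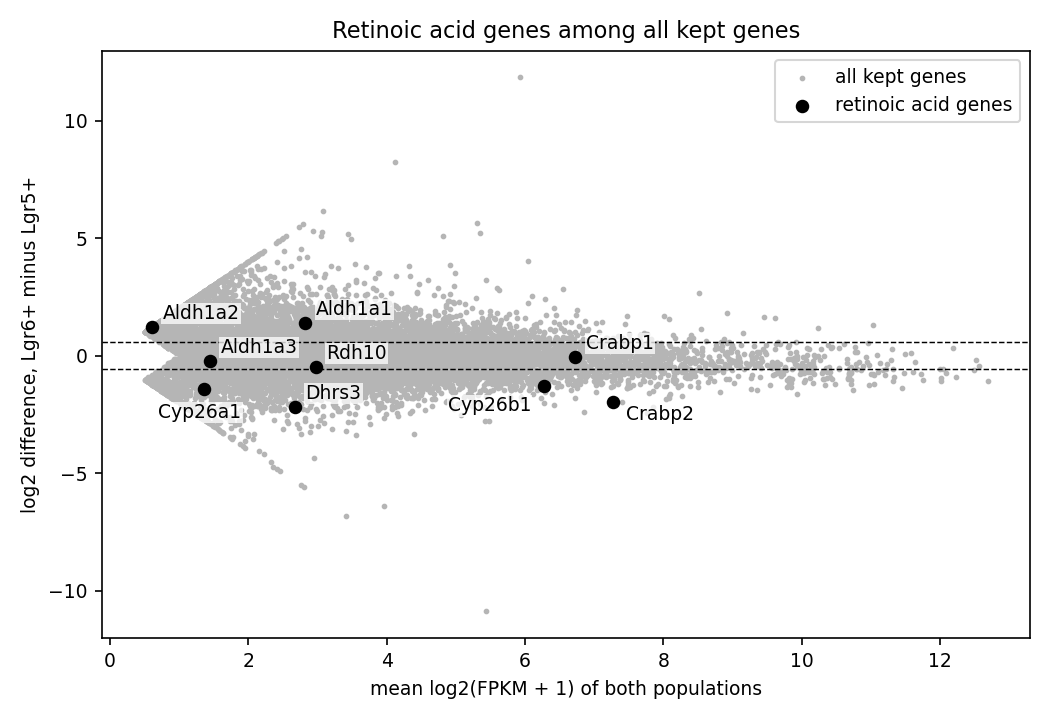
Log2 difference (vertical axis) against the mean log2(FPKM + 1) of both populations (horizontal axis) for all 13436 kept genes in gray and the 9 retinoic acid genes in black, with dashed lines at 1.5-fold. *Crabp2* and *Cyp26b1* lie under the lower line among abundant genes, and *Aldh1a2*, *Aldh1a3* and *Cyp26a1* lie at the left, where the gray points spread most.

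The promoter sequences are shown for *Cyp26a1* because it carries a pattern that retinoic acid receptors are known to bind, for *Rarb* because it is the receptor gene with the same pattern, for *Dhrs3* and *Aldh1a1* because they had the largest log2 differences in each direction with the added 1, and for *Crabp1* because its levels were nearly equal. Sequences came from RefSeq on GRCm38.p6, where 6 of the 9 genes had a promoter entry of 300 bases, from 250 before to 50 after the annotated start. Where a gene had several entries, the one nearest to the gene start in the table is shown. Each sequence below is the 100 bases before the start on the strand of the gene, and capitals mark the 2 half-sites of a direct repeat with 5 bases between them.
Cyp26a1, chr19:37697708-37697807, plus strand: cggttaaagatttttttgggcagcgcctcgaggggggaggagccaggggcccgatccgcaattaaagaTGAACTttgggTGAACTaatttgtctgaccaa
Rarb, chr14:16575477-16575576, minus strand: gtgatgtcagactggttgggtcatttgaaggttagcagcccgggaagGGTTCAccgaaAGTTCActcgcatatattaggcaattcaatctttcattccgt
Dhrs3, chr4:144892727-144892826, plus strand: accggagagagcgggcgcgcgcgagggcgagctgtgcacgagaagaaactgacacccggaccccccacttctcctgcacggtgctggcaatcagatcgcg
Aldh1a1, chr19:20601868-20601967, plus strand: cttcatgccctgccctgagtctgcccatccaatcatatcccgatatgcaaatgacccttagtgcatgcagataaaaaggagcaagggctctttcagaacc
Crabp1, chr9:54764648-54764747, plus strand: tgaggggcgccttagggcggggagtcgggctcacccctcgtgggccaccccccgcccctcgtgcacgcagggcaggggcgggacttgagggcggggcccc

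The half-site searched was AGGTCA, in which the first base could also be G and the third base could also be T, as direct repeats with 1, 2 or 5 bases between them, on both strands. In *Cyp26a1* a repeat with 5 bases between the half-sites lay on the opposite strand from -32 to -16 relative to the RefSeq start, and in *Rarb* one lay on the gene's own strand from -53 to -37. Of all 32851 promoters in the table, 0.0974% held such a repeat with 5 bases between, 0.268% held one with 2 bases and 0.222% one with 1 base. No other promoter of the 9 genes held any of the 3 repeats in these 300 bases, which says only that these letters are not in that window. *Cyp26a1* had a log2 difference of -1.40, past the fold toward Lgr5+ progenitors, with an FPKM of only 0.582 in Lgr6+ progenitors. *Rarb* had an FPKM of 4.31 in Lgr5+ and 6.08 in Lgr6+ progenitors, a log2 difference of 0.42 that did not reach 1.5-fold. A part of the repeat in the level of either gene was not tested.

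The first step of the path had opposite enzymes with unequal differences. *Rdh10*, which makes retinaldehyde from retinol and lies at chr1:16105882-16132550, stood at an FPKM of 8.32 in Lgr5+ and 5.64 in Lgr6+ progenitors, a log2 difference of -0.49 that did not reach 1.5-fold. *Dhrs3*, which turns retinaldehyde back into retinol and lies at chr4:144892827-144927645, had 12.7 in Lgr5+ and 1.98 in Lgr6+ progenitors. Its log2 difference of -2.20 was the largest of the 9 genes toward either population with the added 1, though not with an added 0.1, where *Aldh1a2* reached 3.84, and it ranked 177 among all kept genes toward Lgr5+ progenitors. Within Lgr5+ progenitors the FPKM of *Dhrs3* was 1.52 times that of *Rdh10*, and within Lgr6+ progenitors it was 0.352 times, so the order of these 2 genes was opposite in the populations. A ratio taken inside a population is not changed by scaling the whole population up or down.

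Among the 3 *Aldh1a* genes, *Aldh1a1* was the most abundant in both populations. *Aldh1a1* (chr19:20601982-20643462) stood at an FPKM of 3.39 in Lgr5+ against 10.4 in Lgr6+ progenitors, a ratio of 3.08 and a log2 difference of 1.38. *Aldh1a2* (chr9:71215789-71296243) had a listed value of 0 in Lgr5+ progenitors and reached 1.33 in Lgr6+ progenitors. A value of 0 can be a failed estimate, so no ratio is given for it, and its log2 difference of 1.22 depends on the added 1. *Aldh1a3* (chr7:66390893-66427477) had 1.96 in Lgr5+ and 1.51 in Lgr6+ progenitors, a log2 difference of -0.24 that did not reach 1.5-fold. The 3 genes together summed to 5.35 in Lgr5+ and 13.3 in Lgr6+ progenitors, a ratio of 2.48. *Aldh1a1* made up 63.4% of the sum in Lgr5+ and 78.6% in Lgr6+ progenitors, while the share of *Aldh1a3* was 36.6% and 11.4%.

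*Crabp2* had the highest FPKM of the 9 genes in Lgr5+ progenitors and *Crabp1* in Lgr6+ progenitors, and only the former differed by more than 1.5-fold. *Crabp1* (chr9:54764748-54773110) stood at an FPKM of 107 in Lgr5+ against 102 in Lgr6+ progenitors, a log2 difference of -0.07 that became 0.06 after quantile normalization. *Crabp2* (chr3:87948693-87953372) had 304 in Lgr5+ and 77.7 in Lgr6+ progenitors, which is 3.90 times higher in Lgr5+ progenitors, and its log2 difference was -1.95. Crabp2 is known to pass retinoic acid to its nuclear receptors. In the order of all genes by FPKM, *Crabp2* held place 397 in Lgr5+ and place 1224 in Lgr6+ progenitors, whereas *Crabp1* held place 1015 and place 971. The order of the pair thus differed between the populations, with *Crabp2* at 73.8% of their sum in Lgr5+ and at 43.2% in Lgr6+ progenitors.

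Breakdown genes were lower in Lgr6+ progenitors, and nearly all of their summed FPKM came from one gene. *Cyp26b1* (chr6:84571414-84593908) stood at an FPKM of 120 in Lgr5+ against 48.1 in Lgr6+ progenitors, which is 2.50 times higher in Lgr5+ progenitors, with a log2 difference of -1.31. *Cyp26a1* (chr19:37697808-37701536) had 3.17 in Lgr5+ and 0.582 in Lgr6+ progenitors, a log2 difference of -1.40. *Cyp26b1* made up 97.4% of the sum of both genes in Lgr5+ and 98.8% in Lgr6+ progenitors. The third hydroxylase gene, *Cyp26c1*, was listed at 0 in both populations. Summed FPKM of *Cyp26a1* and *Cyp26b1* was 123 in Lgr5+ and 48.6 in Lgr6+ progenitors.

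Set against the last step of synthesis, the summed *Cyp26* genes were 23.1 times the summed *Aldh1a* genes in Lgr5+ progenitors and 3.66 times in Lgr6+ progenitors, so this ratio of transcripts was 6.30 times larger in Lgr5+ progenitors. The summed binding protein genes were 76.9 times the summed *Aldh1a* genes in Lgr5+ and 13.5 times in Lgr6+ progenitors. Transcripts of the *Cyp26* genes thus outnumbered those of the *Aldh1a* genes per length in both populations. Enzyme activity and retinoic acid itself were not measured.

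**Figure D3:**
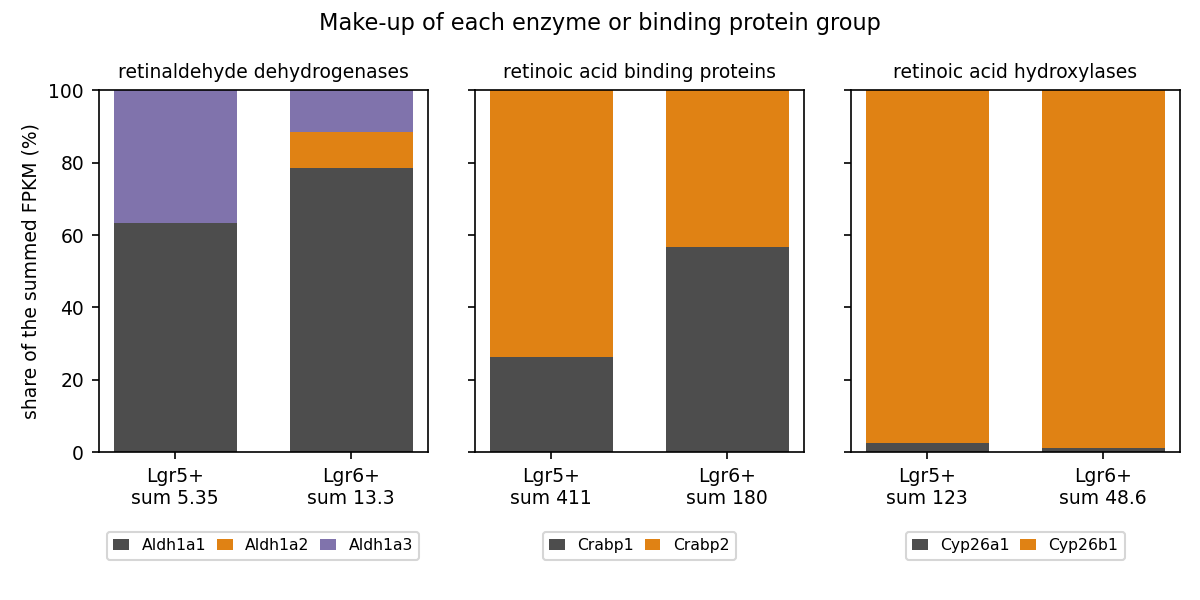
Share of each gene in the summed FPKM of its group, in percent, for the *Aldh1a*, *Crabp* and *Cyp26* genes in Lgr5+ and Lgr6+ progenitors, with the sum under each bar. *Aldh1a2* appears only in the Lgr6+ bar, *Crabp2* goes from 73.8% in Lgr5+ to 43.2% in Lgr6+ progenitors, and *Cyp26b1* fills nearly the whole of both *Cyp26* bars.

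The low values of the table fall on steps, and these give an idea of how few fragments stand behind them. For genes with 1 annotated transcript, the FPKM multiplied by the transcript length in kb, less 200 bases, clustered at a step of 0.129 in Lgr5+ and of 0.0404 in Lgr6+ progenitors. Counted in such steps, *Cyp26a1* stood at 38.8 in Lgr5+ and 22.7 in Lgr6+ progenitors, *Aldh1a1* at 48.8 and 479, and *Aldh1a2* at 0 and 68.1. The Lgr6+ value of *Aldh1a2* would be 21.4 of the coarser Lgr5+ steps. *Crabp2* stood at 1723 and 1408 steps, so the abundant genes rest on far more fragments than the rare ones, if a step is 1 fragment. *Dhrs3*, with 6 annotated transcripts, stood at 210 and 105 steps by the longest and at 47.8 and 23.9 by the shortest. Of kept genes with a mean log2(FPKM + 1) under 2, 16.1% were at least 2-fold higher in Lgr5+ and 38.5% in Lgr6+ progenitors. *Cyp26a1*, *Aldh1a2* and *Aldh1a3* lie there. With a mean from 2 to under 4, where *Rdh10*, *Dhrs3* and *Aldh1a1* lie, these shares were 12.0% and 16.3%. Where that mean was 6 or more, where *Crabp1*, *Crabp2* and *Cyp26b1* lie, these shares were 8.93% and 3.33%.

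A list of 19 other enzymes held those that act on retinol or retinaldehyde and also the hydroxylase gene *Cyp26c1*. Of the 19, 10 were kept, 5 of them past the fold toward Lgr6+ and 2 toward Lgr5+ progenitors. Among all kept genes the shares past it were 28.5% and 23.3%. Of the 5 enzymes, *Rdh5*, *Rdh16* and *Cyp1b1* were kept through their Lgr6+ value alone. Where both populations had to reach an FPKM of 1 the counts were 2 and 2 of 7. All genes kept that way had 21.4% toward Lgr6+ and 22.5% toward Lgr5+ progenitors. *Rdh12*, which reduces retinaldehyde and is best known from photoreceptors, had an FPKM of 6.95 in Lgr5+ and 73.3 in Lgr6+ progenitors, a log2 difference of 3.22. *Rdh11* had 1.13 and 6.02, *Rdh5* had 0.481 and 2.28, and *Rdh16* was listed at 0 in Lgr5+ and had 2.03 in Lgr6+ progenitors. The 2 enzymes past the fold toward Lgr5+ progenitors were *Dhrs4* and *Rdh13*, with log2 differences of -0.855 and -0.997. Both had an FPKM above 1 in each population. The most abundant of the 19 was *Adh5*, an alcohol dehydrogenase gene of broad expression, with 87.1 and 72.6, and it did not reach 1.5-fold.

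All 8 genes of the retinoic acid receptors and their partners were kept, of which 2 were past the fold toward Lgr5+ and 1 toward Lgr6+ progenitors. The partner receptors accounted for both of the former. The shares of all kept genes past the fold were 23.3% toward Lgr5+ and 28.5% toward Lgr6+ progenitors. *Rxra* had an FPKM of 16.1 in Lgr5+ and 6.04 in Lgr6+ progenitors, a log2 difference of -1.28, and *Rxrg* had 15.1 and 5.73, a log2 difference of -1.25. *Rara* had 10.7 and 17.7, a log2 difference of 0.68, while *Rarb* and *Rarg* stayed under 1.5-fold. The highest FPKM of the list was that of *Fabp5*, a carrier that is known to bring retinoic acid to the receptor Ppard, with 81.2 and 65.3, under 1.5-fold.

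Of 18 genes known as targets of retinoic acid in other tissues, leaving out the 9, only 7 were kept, 3 of them past the fold toward Lgr6+ and 0 toward Lgr5+ progenitors. All 3 were kept through their Lgr6+ value alone, and where both populations had to reach an FPKM of 1 no gene of the list was past the fold in either direction. The 3 genes were *Rarres2* and *Rarres1*, both listed at 0 in Lgr5+ progenitors with an FPKM of 6.20 and 5.27 in Lgr6+ progenitors, and *Meis1* with 0.398 and 2.68. The *Hox* genes of the list were at or near 0 in both populations. Over all 58 other genes of the pathway, 34 were kept, 6 were past the fold toward Lgr5+ and 10 toward Lgr6+ progenitors. These counts became 6 and 4 where both populations had to reach an FPKM of 1. Beside these and the target counts, the shares of all kept genes were 23.3% toward Lgr5+ and 28.5% toward Lgr6+ progenitors. With both populations at 1 or more they were 22.5% and 21.4%.

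**Figure D4:**
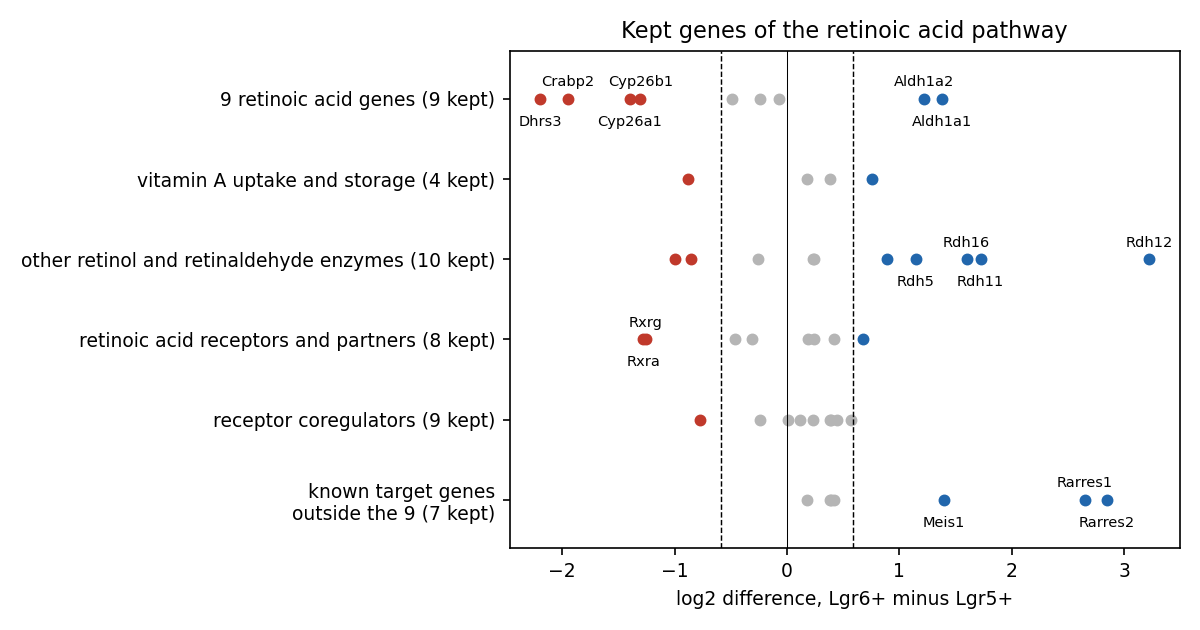
Log2 difference of each kept gene, 1 point per gene, for the 9 retinoic acid genes and for 5 lists of other pathway genes, with dashed lines at 1.5-fold. Red points are past the fold toward Lgr5+ and blue points toward Lgr6+ progenitors, gray points are under it, and names are given for genes at least 2-fold apart. Among the 5 other lists, the lowest points are *Rxra* and *Rxrg* in the receptor list and the highest is *Rdh12* in the enzyme list.

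The populations also differed in genes of other cell types, measured in the same combined values. The sorting genes did not separate them in the way of their names. *Lgr6* had an FPKM of 2.06 in Lgr5+ and 2.90 in Lgr6+ progenitors and *Lgr5* had 9.65 and 25.0. The paper places Lgr6+ cells within the Lgr5+ progenitors, as a subpopulation of them. Supporting cell markers were present in both, with 10 of 10 kept, 4 past the fold toward Lgr5+ and 1 toward Lgr6+ progenitors, and a sum of 3934 in Lgr5+ and 3566 in Lgr6+ progenitors. *S100a1* alone gave 2959 and 3177 of these sums, and the other 9 markers summed to 975 and 389, which is 2.51 times higher in Lgr5+ progenitors. The share of all kept genes past the fold was 28.5% toward Lgr6+ and 23.3% toward Lgr5+ progenitors. Markers past the fold toward Lgr6+ progenitors were 6 of 8 for hair cells, 6 of 10 for fibrocytes and mesenchyme and 6 of 6 for endothelial cells. They were 4 of 6 for glia, 1 of 6 for neurons, 2 of 6 for melanocytes and 5 of 7 for macrophages. Of the markers in these counts, *Pecam1*, *Kdr*, *Tek*, *Pmp22*, *Pmel*, *Csf1r*, *C1qa*, *C1qb* and *Fcer1g* were kept through their Lgr6+ value alone. Toward Lgr5+ progenitors 1 marker of fibrocytes and mesenchyme and 1 of neurons was past the fold, and none of the other 5 types. Their sums in Lgr5+ and Lgr6+ progenitors were 657 and 951 for hair cells, 330 and 613 for fibrocytes and mesenchyme, 10.9 and 80.7 for endothelial cells, 49.9 and 255 for glia, 93.0 and 124 for neurons, 3.84 and 53.0 for melanocytes and 3.88 and 147 for macrophages. Listed at 0 in Lgr5+ progenitors were *Kdr*, *Csf1r*, *C1qb*, *Ptprc* and the melanocyte markers *Dct*, *Mlana* and *Tyrp1*, of which the last pair was at 0 in both. *Ptprc* at 0.00814 and *Dct* at 0.681 were not kept in Lgr6+ progenitors either. The glial marker *Foxd3* and the neuronal marker *Neurod1* were listed at 0 in Lgr6+ progenitors. Erythroid markers were past the fold toward Lgr5+ progenitors for 4 of 5 genes, with sums of 629 and 108. Of markers past the fold toward Lgr5+ progenitors, *Ngfr*, *Tubb3*, *Hba-a1* and *Hba-a2* were kept through their Lgr5+ value alone. The sorted cells had passed an EGFP gate, and the study also checked them by re-sorting, by staining for Sox2 and Myo7a and by q-PCR. In the paper, re-sorting gave a high purity, nearly all sorted cells of both populations stained for Sox2, and none stained for Myo7a. By q-PCR the paper found *Lgr5* and *Lgr6* significantly higher in the respective EGFP+ cells than in the EGFP- cells. *Sox2* was higher there and the hair cell marker *Brn3.1* was lower. That comparison was with EGFP- cells, whereas the values here set the EGFP+ populations against each other. The part of the other cell types and of the supporting cell markers in the differences of *Aldh1a1*, *Aldh1a2*, *Rdh12*, *Rarres1*, *Rarres2* and the genes higher in Lgr5+ progenitors was not tested, and in such mixed RNA fewer cells of a type and less RNA per cell cannot be told apart.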

How the data were processed

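Expression in the sorted populations was read from 1 table. The authors used Trimmomatic for trimming, TopHat for mapping, RefGene for annotation and Cufflinks for FPKM, on libraries from a low-input kit. Versions are not given in the sources used here. The deposited FPKM are 1 combined value per population, normalized for transcript length and mapped fragments, with no counts and no depth of single libraries in the table, so no intervals are given. The paper names mm9 and the labels name mm10. Starts in the table, after adding 1, equal the RefSeq GRCm38.p6 gene start for 50.2% of 22497 shared symbols, and positions are given on that build. The table also holds the log2 fold change, *p*-value and *q*-value of the authors' own comparison, which were not used.

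Genes were kept where either population reached an FPKM of 1, and log2(FPKM + 1) was compared at 1.5-fold, without a test. Results were recomputed with a pseudocount of 0.1, without a filter, with a minimum FPKM of 5, quantile, upper quartile and median ratio scaling, a ratio without a pseudocount, a 2-fold threshold and, added after seeing the data, the demand that both populations reach an FPKM of 1. The 9 genes and all lists were chosen with earlier results of these data known. Named beside the 9 and the sorting genes were the kept genes of each pathway list at least 2-fold apart and the most abundant gene of each list, 1 of which is not reported here. *Rara*, *Rarb*, *Rarg*, *Cyp26c1*, *Stra6*, *Lrat*, *Rbp4*, *Ttr*, *Rbp7*, *Crebbp* and the markers at 0 were named after their values were seen. So were *Dhrs4*, *Rdh13* and the markers kept through 1 population alone. *Bco1* was matched as *Bcmo1*. The 1.5-fold calls and the search for direct repeats were tested on simulated data. The steps of low values, the sums and the scalings were not. The work used Python 3.11.15, numpy 2.4.6, pandas 2.3.3 and matplotlib 3.10.9.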

Additional observations from a re-analysis of the deposited data

How the results depend on the processing

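Of 111 values recomputed for the 9 genes, their counts, the other pathway genes and the group sums, 103 were counted as unchanged. For differences and sums this means the same direction and side of 1.5-fold, and for counts a change within 1.5 times. Part of this was fixed in advance, since a change of filter alone cannot alter the log2 difference of a kept gene. Such were the settings without a filter, with a minimum FPKM of 5 and with both populations at 1 or more. *Crabp1* changed sign after quantile normalization, from -0.07 to 0.059, and *Rdh10* passed 1.5-fold there with -0.62. The number of the 9 past the fold toward Lgr6+ progenitors was 1 in place of 2 where *Aldh1a2* could not enter. This held with a minimum FPKM of 5, with the ratio without a pseudocount and when both populations had to reach an FPKM of 1. Toward Lgr5+ progenitors the number was 3 in place of 4 in the first and last of these settings, because *Cyp26a1* was not kept. After quantile normalization it was 5. The other pathway genes past the fold toward Lgr6+ progenitors numbered 6 at a minimum FPKM of 5 and 4 when both populations had to reach an FPKM of 1, against 10, since fewer genes are kept, while those toward Lgr5+ progenitors stayed at 6 in number in both settings, so the larger count toward Lgr6+ progenitors was lost in the former and turned in the latter. At 2-fold those toward Lgr5+ progenitors numbered 2, beside 11.7% of all kept genes. At the minimum of 5 the shares of all kept genes past 1.5-fold were 24.1% toward Lgr5+ and 24.1% toward Lgr6+ progenitors. With both populations at 1 or more they were 22.5% and 21.4%. The log2 difference ran over all settings from -2.67 to -2.17 for *Dhrs3*, from -1.97 to -1.75 for *Crabp2*, from -1.32 to -1.22 for *Cyp26b1*, from -2.45 to -1.38 for *Cyp26a1* and from 1.23 to 1.62 for *Aldh1a1*. That of *Aldh1a2* ran from 1.02 to 3.84, with the size set by the added value. *Aldh1a2*, *Aldh1a3* and *Cyp26a1* gave no value at a minimum FPKM of 5. No paired analysis was possible because the table holds 1 combined value per population, and leaving out a replicate was not run for the same reason.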

Other observations

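Of 9 genes of vitamin A uptake and storage, 4 were kept. *Stra6*, the cell surface receptor that takes up retinol, had an FPKM of 9.73 in Lgr5+ and 13.0 in Lgr6+ progenitors and stayed under 1.5-fold. *Lrat*, which stores retinol as an ester, was at 0.0251 and 0, and *Rbp4*, the carrier of retinol in blood, was listed at 0 and 0.615. *Ttr*, its partner in blood, had 17.7 and 30.7, and *Rbp7* had 7.82 and 3.80. These were the only kept genes of that list past 1.5-fold, in opposite directions.

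All 9 coregulator genes of the receptors were kept, and *Crebbp*, a histone acetyltransferase gene, was the only one past 1.5-fold, with 19.5 in Lgr5+ and 11.0 in Lgr6+ progenitors. *Ncor1*, a corepressor gene and the most abundant of the list, had 46.0 and 49.8. Over the whole table, 31 genes held the direct repeat with 5 bases between the half-sites in an annotated promoter. Of these 5 were kept, 2 of them past the fold toward Lgr5+ and 1 toward Lgr6+ progenitors. For these genes, the coregulators and the uptake list alike, the shares of all kept genes were 23.3% toward Lgr5+ and 28.5% toward Lgr6+ progenitors.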
